A study of Mus musculus with 141 samples.

Results

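Gene deserts were taken as the CpGs of autosomes 1 to 19 that lie more than 100 kb from the interval of any protein-coding gene and that were called in 5 or more cells of each arm. By this rule 19377 of 390944 shared autosomal CpGs (4.96%) were desert CpGs. They were compared with 88100 shared CpGs that lie between protein-coding genes but within 100 kb of one (other intergenic sequence), and with 283467 inside protein-coding gene intervals. The desert CpGs fell into 1100 stretches, out of 1403 stretches of such sequence with a summed length of 681 Mb and a median length of 223 kb.

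The cells were mouse glioma cells carrying the IDH R132H mutation, which both arms share. Culture ran beyond 2 weeks in the presence of either AG-881 (vorasidenib, which blocks the mutant forms of IDH1 and IDH2) at 1 µM or its vehicle DMSO. Live cells were then sorted singly into wells and profiled by reduced representation bisulfite sequencing, which cuts DNA with MspI at CCGG and so samples CpG-dense sequence best. The 67 AG-881 cells and 74 DMSO cells came from 1 plate per arm, and their libraries were made in 4 pools per arm: pools 1 to 4 are AG-881 and pools 5 to 8 are DMSO. No pool holds both arms, so arm, plate and pool cannot be told apart, and cells of 1 culture are not replicates of a treatment. No test between arms was therefore run, and every interval below is a 95% interval that covers counting error only. The same 24 well barcodes occur in both arms. AG-881 cells gave a median of 3261 desert calls (673 to 6388) and DMSO cells 2604 (651 to 6086). Read depth behind a call is unknown. The transcriptomes of these cells were not analysed here, so the labelled cell type was not checked against marker genes.

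Gene deserts are long stretches without protein-coding genes, often rich in repeats and replicated late, that can hold long non-coding RNAs and distant enhancers. In most mammalian cells their scattered CpGs are largely methylated, while CpG-dense islands near gene starts are usually free of methylation, and in cultured and tumour cells late-replicating sequence can lose methylation in part. Mutant IDH makes 2-hydroxyglutarate, which inhibits the TET enzymes that start the removal of DNA methylation.

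The desert CpGs that are easiest to place belong to the promoters of long non-coding RNAs. In all, 47 promoters of the RefSeq annotation (250 bases before to 50 after a gene's start, GRCm38) held desert CpGs, 152 CpGs together, and all 47 were of long non-coding RNA genes. All 47 contain the letters CCGG, which read the same on both strands and which 52.8% of the 32851 promoters in that table contain. The desert rule leaves out promoters of protein-coding genes, and the assay cuts at CCGG, so neither count is read as an enrichment. Of the 47 promoters, 12 had 4 or more desert CpGs and 40 or more calls in each arm. The 6 below were chosen after their values were seen, because they run from no methylated call to mostly methylated calls. Each is written 5′ to 3′ on the strand of its gene, with the measured CpGs in capitals.
Gm41062: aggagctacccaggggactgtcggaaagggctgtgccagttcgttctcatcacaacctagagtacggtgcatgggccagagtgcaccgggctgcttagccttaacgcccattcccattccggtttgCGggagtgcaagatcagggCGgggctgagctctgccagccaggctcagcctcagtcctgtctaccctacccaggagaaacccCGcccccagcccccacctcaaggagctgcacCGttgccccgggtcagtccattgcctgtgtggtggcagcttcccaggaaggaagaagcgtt
C130026L21Rik: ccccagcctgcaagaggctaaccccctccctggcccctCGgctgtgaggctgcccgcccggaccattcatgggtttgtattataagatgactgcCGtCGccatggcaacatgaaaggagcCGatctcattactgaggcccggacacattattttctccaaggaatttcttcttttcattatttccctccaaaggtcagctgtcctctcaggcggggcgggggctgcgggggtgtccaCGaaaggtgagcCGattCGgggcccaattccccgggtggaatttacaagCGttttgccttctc
Lncpint: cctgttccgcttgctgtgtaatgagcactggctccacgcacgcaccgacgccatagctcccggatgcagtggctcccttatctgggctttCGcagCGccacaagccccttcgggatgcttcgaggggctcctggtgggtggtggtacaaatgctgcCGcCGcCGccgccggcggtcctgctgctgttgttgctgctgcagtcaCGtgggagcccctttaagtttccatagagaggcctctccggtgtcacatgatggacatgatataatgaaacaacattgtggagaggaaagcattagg
Gm31816: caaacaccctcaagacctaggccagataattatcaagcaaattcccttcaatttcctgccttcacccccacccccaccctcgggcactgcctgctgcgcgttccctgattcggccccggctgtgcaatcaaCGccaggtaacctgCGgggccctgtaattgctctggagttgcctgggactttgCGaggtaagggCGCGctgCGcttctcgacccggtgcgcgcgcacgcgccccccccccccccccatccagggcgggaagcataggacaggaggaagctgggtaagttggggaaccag
LOC115490388: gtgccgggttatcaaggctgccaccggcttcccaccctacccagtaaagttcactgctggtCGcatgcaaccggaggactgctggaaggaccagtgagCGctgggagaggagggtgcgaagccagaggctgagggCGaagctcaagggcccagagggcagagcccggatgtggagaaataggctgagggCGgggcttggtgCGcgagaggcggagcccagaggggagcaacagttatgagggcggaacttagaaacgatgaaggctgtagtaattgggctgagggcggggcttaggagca
LOC115487949: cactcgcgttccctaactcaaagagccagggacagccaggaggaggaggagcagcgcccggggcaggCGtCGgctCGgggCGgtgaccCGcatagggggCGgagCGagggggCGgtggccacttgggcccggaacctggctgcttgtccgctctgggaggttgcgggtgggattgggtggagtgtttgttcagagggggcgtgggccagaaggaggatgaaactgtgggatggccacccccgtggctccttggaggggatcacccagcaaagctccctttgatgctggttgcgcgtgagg

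The promoter of Gm41062 (chr13:112100672-112100971, plus strand, 187.5 kb from Ankrd55) had no methylated call in 66 calls with AG-881 and in 43 with DMSO, which allows levels of up to 4.55% and 6.98%. The promoter of C130026L21Rik (chr5:111581311-111581610, plus strand, 124.3 kb from Mn1) was at 8.33% (4.23 to 14.4, 132 calls) with AG-881 and 11.9% (5.86 to 20.8, 84 calls) with DMSO. Both were low in both arms. Lncpint, a long non-coding RNA induced by p53, had 25% (14.4 to 38.4) against 23.6% (13.2 to 37.02) at its promoter (chr6:31218425-31218724, minus strand). Gm31816 (chr9:47368195-47368494, minus strand) stood at 40.7% (27.6 to 54.97) against 48.3% (35.2 to 61.6), and its pools ran from 0% in pool 2 to 66.7% in pool 5. LOC115490388 (chr6:3182866-3183165, plus strand) was at 62.7% (52.6 to 72.1) against 64.4% (54.4 to 73.6), and LOC115487949 (chr12:21543376-21543675, plus strand) at 83.3% (72.7 to 91.1) against 89.1% (78.8 to 95.5). The intervals of the arms overlapped at each of these 6 promoters. Over the 12 promoters the AG-881 value was the lower one at 9 and the higher one at 2, and the interval of the difference included 0 at all 12. The share over promoters of other sequence is not given here. The counts of 9 and 2 are therefore not read as particular to deserts or to the arm. Promoters with the same number of CpGs differed: C130026L21Rik and LOC115490388 have 15 CpGs each, and Gm31816 and LOC115487949 have 19 each.

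Pooled over cells, desert CpGs were methylated in 73.8% of 222178 calls with AG-881 (73.6 to 73.9) and in 73.4% of 213715 calls with DMSO (73.2 to 73.6). Other intergenic sequence stood at 32.4% and 33.7%, and gene intervals at 19.04% and 20.3%. The median desert CpG was at 83.3% in both arms. With DMSO, 53.2% of desert CpGs were above 80%, 37.2% lay between 20% and 80%, and 9.67% were below 20%. In gene intervals 69.6% of CpGs were below 20% and 14.5% above 80%. Most desert CpGs were thus highly methylated, and most CpGs of gene intervals had few methylated calls.

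Local CpG density, counted as the CpGs of the table within 100 bp on either side with the CpG itself and so depending on what the assay sampled, set the classes compared next. In the class of 1 to 4 CpGs, which holds 58.7% of desert CpGs but 17.03% of those in gene intervals, deserts were at 69.3% with AG-881 and 68.7% with DMSO, other intergenic sequence at 59.3% and 60.03%, and gene intervals at 61.8% and 62.8%. In the class of 5 to 9, deserts rose to 80.8% and 80.6%, while other intergenic sequence was at 40.2% and 41.01% and gene intervals at 30.3% and 31.3%. In the class of 10 to 19, deserts were at 71.7% and 73.01% against 12.3% and 13.5% in other intergenic sequence. The desert excess over other intergenic sequence in DMSO cells thus grew from 8.72 points in the sparsest class to 39.6 and 59.5 points in the next classes. Elsewhere the level fell with each step in density; in deserts it was highest in the second class.

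**Figure D1:**
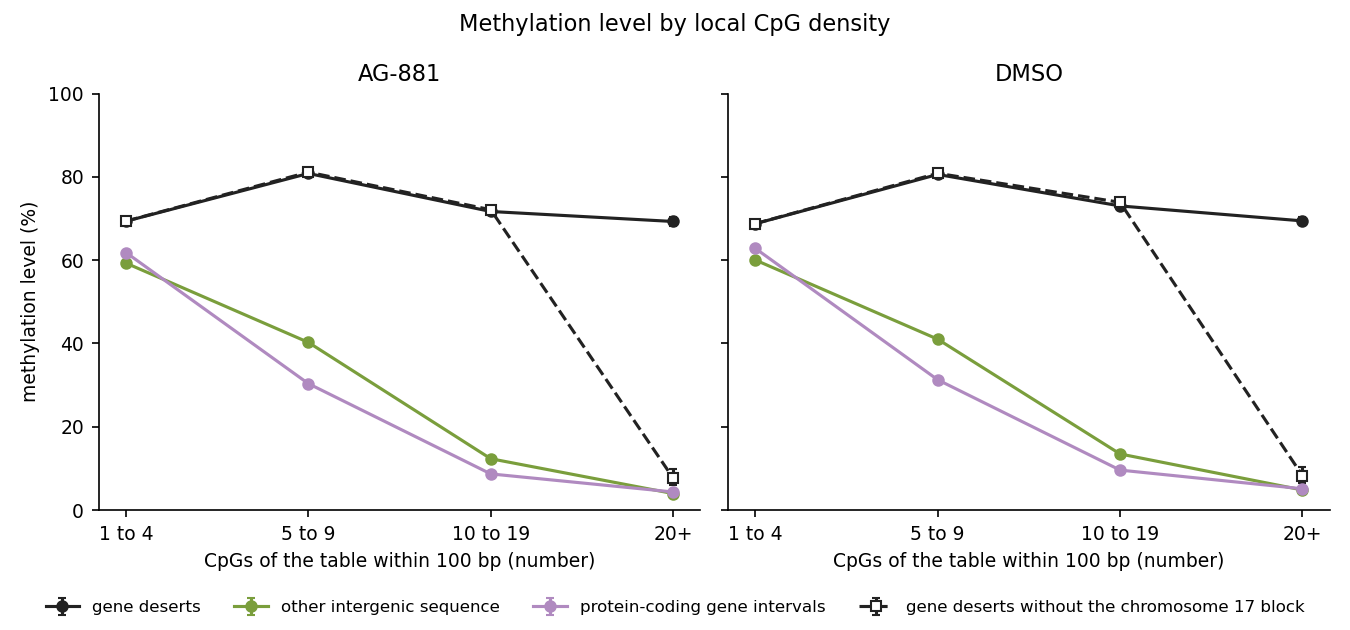
Methylation level (%) against local CpG density (CpGs of the table within 100 bp) with AG-881 (left) and DMSO (right), for deserts, other intergenic sequence and gene intervals; bars are 95% Clopper-Pearson intervals of the pooled calls. Deserts stay near 70 to 80% up to 19 CpGs, and in the densest class they are at 69.3% and 69.4% with the chromosome 17 block and at 7.69% and 8.27% without it.

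The densest class, of 20 or more CpGs, held 249 desert CpGs at 69.3% with AG-881 and 69.4% with DMSO, where the same class of other intergenic sequence was at 3.96% and 4.81%. Most of these calls came from 1 place. A block of 5711 bp at chr17:39843026-39848736, in the stretch between Esp15 and Esp38 (genes of exocrine gland-secreted peptides), holds 338 desert CpGs, 176 of them in the densest class. It contains Rn18s-rs5 (chr17:39846354-39848202), annotated as a sequence related to 18S ribosomal RNA; ribosomal RNA genes occur as arrays of many near-identical copies, and how reads of such copies were assigned is not given in the sources used here. A CpG of the block was called in a median of 76 cells, against 17 for the other desert CpGs, so it supplied 5.64% of all desert calls from 1.74% of the CpGs. Whether several copies contribute to its values was not tested.

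Without the block, the densest class had 73 desert CpGs, at 7.69% with AG-881 (5.89 to 9.83, 754 calls) and 8.27% with DMSO (6.47 to 10.4, 810 calls). Outside the block, the densest desert CpGs were therefore mostly unmethylated, a few points above the same class elsewhere. The other classes moved little without the block, to 69.4% and 68.8%, 81.1% and 80.8%, and 72.1% and 73.9%. The class of 10 to 19 CpGs thus stayed far above the 12.3% and 13.5% of other intergenic sequence.

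The block itself was at 72.2% with AG-881 (71.4 to 73.04) and 72.8% with DMSO (72.005 to 73.5). By pool it was at 74.8%, 66.3%, 79.4% and 67.5% in pools 1 to 4 and at 71.4%, 68.5%, 71.9% and 78.01% in pools 5 to 8, so the pools of each arm spread over more than 9 points and overlapped. Inside Rn18s-rs5, 56 CpGs were at 64.5% and 67.1%, and the other 282 at 73.6% and 73.8%. Cells differed widely here: over 67 AG-881 cells the level was 71.5 ± 13.7% (SD) and ran from 25.3% to 94.7%, and over 74 DMSO cells it was 72.3 ± 14.2% and ran from 7.02% to 92%. Counting of independent calls would give an SD of 3.37 and 3.25 points at a median of 170 and 184.5 calls per cell. Neighbouring calls of a cell may share a molecule, so the true counting SD may be larger. The level was below 50% in 4 cells of each arm.

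**Figure D2:**
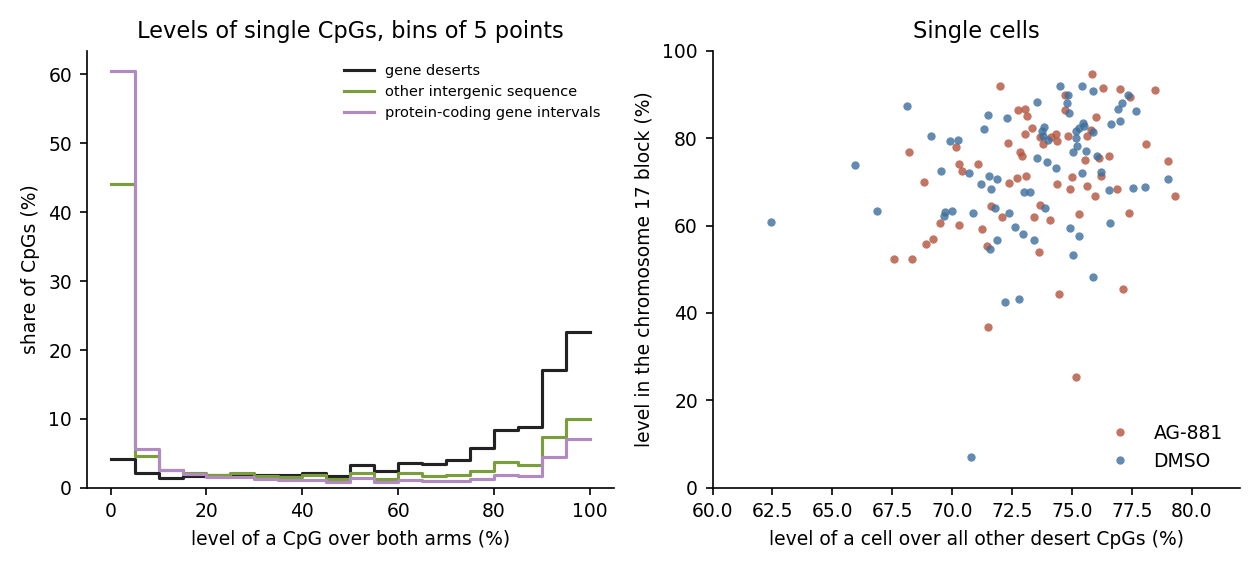
Left: share of CpGs (%) in each 5-point bin of their level over both arms, for deserts, other intergenic sequence and gene intervals; 22.6% of desert CpGs are in the top bin and 4.17% in the bottom one. Right: for each cell, the level (%) in the chromosome 17 block against that over all other desert CpGs; the lowest cell of each arm in the block, at 7.02% (DMSO) and 25.3% (AG-881), are at 70.8% and 75.2% in other deserts.

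Between the arms, the desert level differed by 0.368 points (AG-881 minus DMSO, interval 0.106 to 0.630), a difference that 1 pool decides. Pools 1 to 4 were at 72.3%, 72.9%, 75.8% and 73.6%, and pools 5 to 8 at 73.4%, 71.99%, 73.2% and 74.3%. The pools of the arms overlapped, and pool 3 was above every DMSO pool. Without pool 3 the difference was -0.379 points. By density class the arm difference was 0.597 points (0.213 to 0.981) in the sparsest class, 0.239 (-0.151 to 0.629) in the class of 5 to 9, -1.33 (-2.23 to -0.438) in the class of 10 to 19 and -0.140 (-1.63 to 1.35) in the densest. Without pool 3 the sparsest class came to 0.00622 points. In the class of 10 to 19 the pools read 70.7%, 68.8%, 75.2% and 71.6% with AG-881 and 74.5%, 71.95%, 71.5% and 73.5% with DMSO, which overlap.

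**Figure D3:**
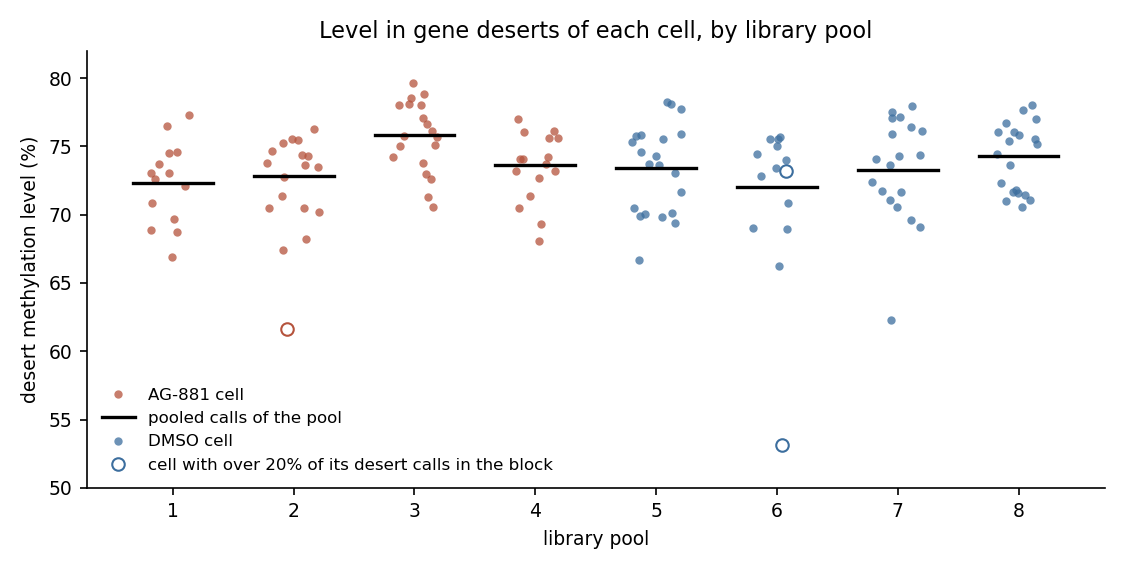
Desert level (%) of each cell by library pool (1 to 4 AG-881, 5 to 8 DMSO); black lines are the pooled calls of a pool. Open circles are the 3 cells with over 20% of their desert calls in the chromosome 17 block; pool 3, at 75.8%, is above all other pools.

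Deserts differed from other sequence in what the arms showed. Other intergenic sequence was 1.30 points lower with AG-881 (-1.44 to -1.16), and gene intervals 1.23 points lower (-1.29 to -1.16). The desert difference minus that of other intergenic sequence was 1.67 points (1.37 to 1.97), and it lay between 1.43 and 2.14 points when each pool was left out in turn. This contrast kept its sign in the sparsest class (1.35, 0.881 to 1.82) and in the class of 5 to 9 (1.00, 0.512 to 1.4955), but in the class of 10 to 19 it was -0.187 (-1.10 to 0.728). In CpG-poor sequence the arm difference was thus more negative near genes than in deserts, while in the class of 10 to 19 CpGs the interval of the contrast included 0.

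The arm difference also varied along the distance from genes. Intergenic CpGs up to 10 kb from a protein-coding gene were at 17.9% with AG-881 and 19.1% with DMSO, and those at 10 to 50 kb at 60.2% and 61.4%. Just outside the 100 kb limit, at 50 to 100 kb, the levels were 64.7% and 65.1%, and just inside it, at 100 to 200 kb, 70.5% and 70.7%. At 200 to 500 kb they were 75.8% and 75.2%, and beyond 500 kb 76.0% and 75.3%. The level thus climbed with distance up to 200 to 500 kb. The arm difference went from -1.21 and -1.19 points in the 2 nearest bins through -0.338 and -0.107 to 0.658 and 0.660 in the 2 farthest. Without pool 3 each bin was lower, at -1.89, -2.11, -1.18, -1.14, 0.0755 and 0.149 points, and the 2 farthest bins were still the highest. In the sparsest density class alone, with all pools, the difference went from -1.29 points in the nearest bin to 1.02 points in the farthest. With each pool left out in turn, the nearest bin ran from -2.20 (without pool 3) to -0.770 (without pool 1) and the farthest from 0.359 (without pool 3) to 1.52 (without pool 1). Over all densities the farthest bin ran from 0.149 to 1.04, also set by pools 3 and 1, and was 0.397 without pool 6.

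**Figure D4:**
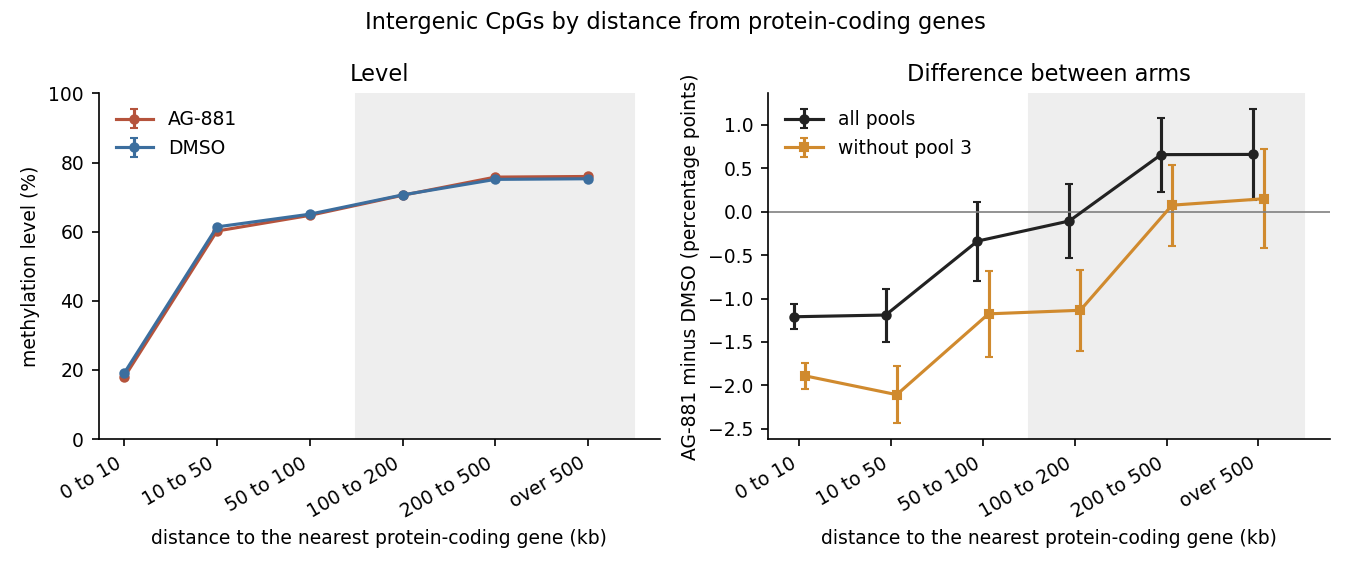
Intergenic CpGs by distance to the nearest protein-coding gene (kb; deserts shaded). Left: level (%) with AG-881 and DMSO. Right: AG-881 minus DMSO (percentage points) with all pools and without pool 3, which shifts every bin down; bars are 95% counting intervals, and the difference is -1.21 points in the nearest and 0.660 in the farthest bin with all pools.

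Because deserts are more methylated, the arms were also compared among CpGs sorted to the same range of level. CpGs were sorted by their level in pools 5 and 6 (2 or more calls), and AG-881 was then set against pools 7 and 8, which the sorting did not use. Desert CpGs sorted to 40 to 60% were at 59.1% with AG-881 and 59.4% in pools 7 and 8 (difference -0.289, -1.43 to 0.853), while those in gene intervals were at 42.3% and 45.98% (-3.65, -4.16 to -3.15) and those in other intergenic sequence at 48.3% and 50.9% (-2.63, -3.38 to -1.88). Desert CpGs sorted to 60 to 80% differed by 0.0703 points (-0.701 to 0.846), against -2.16 (-2.65 to -1.66) in gene intervals. Desert CpGs sorted to 20 to 40% differed by -1.74 points (-3.14 to -0.342), against -2.63 (-3.00 to -2.26) in gene intervals and -2.69 (-3.35 to -2.03) in other intergenic sequence, with overlapping intervals. Below 20% the order was the opposite: desert CpGs differed by -1.40 points (-2.27 to -0.536), against -0.422 (-0.460 to -0.385) in gene intervals and -0.640 (-0.734 to -0.547) in other intergenic sequence. Without pool 3 these values below 20% were -1.74, -0.536 and -0.807 points. Without pool 3 the desert differences were -1.42 at 40 to 60% and -0.974 at 60 to 80%, against -4.58 and -3.34 in gene intervals. The 9823 desert CpGs sorted to 80 to 100% differed by 0.233 points (-0.0615 to 0.529), against -0.890 (-1.07 to -0.704) in gene intervals. Without pool 3 these were -0.209 and -1.41 points. Desert CpGs sorted to 40 to 100% thus differed less in points between the arms than gene CpGs sorted alike, with and without pool 3. Desert CpGs sorted below 20% differed more in points, but from a higher level. In that range pools 7 and 8 were at 16.97% in deserts, 2.48% in gene intervals and 3.77% in other intergenic sequence. The sorting did not match levels, as pools 7 and 8 were higher in deserts in each of these ranges. At 60 to 80% they were at 75.9% in deserts and 66.7% in gene intervals. The larger difference below 20% and the smaller ones above 40% are therefore not read as a stronger or weaker response of deserts. How far level alone accounts for these differences was not tested.

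Most desert CpGs lie in no annotated gene of any kind: 16307 of them, at 74.5% and 73.99% (difference 0.560, 0.278 to 0.842). The 2397 inside long non-coding RNA genes were at 69.7% and 70.4% (-0.720, -1.52 to 0.0838), and the 359 inside pseudogenes at 70.7% and 70.9%. This order did not hold in every density class. In the class of 1 to 4 CpGs, 1858 CpGs inside genes of other types were at 69.2% and 69.7%, and 9511 outside any gene at 69.4% and 68.6%. In the class of 5 to 9 they were at 74.8% and 75.4% inside and 81.6% and 81.3% outside.

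Cells varied more than counting of independent calls would give. The desert level was 73.5 ± 3.28% (SD) over the 67 AG-881 cells, from 61.7% to 79.6% with a median of 73.8%, and 73.2 ± 3.93% over the 74 DMSO cells, from 53.2% to 78.3% with a median of 73.9%. The ranges overlapped, and the DMSO range reached further down. Cells cover different CpGs, so each call was also compared with the average level of its CpG over the 2 arms, leaving out the cell itself. The SD of this relative level was 2.88 points with AG-881 and 3.76 with DMSO, where counting gives 0.626 and 0.689.

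The lowest cell of each arm had many of its calls in the block on chromosome 17. In 3 cells the block gave over 20% of the desert calls: 27.7% in the DMSO cell at 53.2%, 27.04% in the AG-881 cell at 61.7% and 21.01% in a DMSO cell of pool 6. The first was at 7.02% in the block and 70.8% in the other deserts, and the second at 25.3% and 75.2%. Without the block the desert level was 73.7 ± 2.76% with AG-881 (67.6% to 79.3%) and 73.5 ± 3.01% with DMSO (62.4% to 79.0%), and the relative level had an SD of 2.42 and 2.75 points against 0.638 and 0.707 from counting. The spread over cells thus stayed well above that of counting independent calls in both arms. Calls that share a molecule are not independent, so the counting SDs may be too small. A DMSO cell of pool 7 remained low at 62.4% of 2818 calls, with a relative level of -10.2 points.

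A cell's relative level in deserts went with its relative level at all other shared CpGs. Without the block, Pearson's r was 0.785 over 67 AG-881 cells and 0.764 over 74 DMSO cells, and Spearman's rho was 0.746 and 0.745. These values share the cell's library, its bisulfite conversion and its depth, and they are given as a description. The relation to the number of desert calls per cell was weaker, with r of 0.213 and -0.0016. The relative level averaged over cells differed by 0.0951 points between arms (AG-881 minus DMSO) and by -0.395 without pool 3, both smaller than the SD over cells.

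Single stretches spread widely. Of 295 stretches with 200 or more calls in each arm, the median level in DMSO cells was 75.6%, the middle 50% lay between 69.5% and 81.7%, and the extremes were 5.90% and 96.5%. The lowest lies between Ppp1r14bl and Ogfrl1 on chromosome 1 (5.77% with AG-881, 5.90% with DMSO, 40 CpGs), and the highest between Thumpd2 and Slc8a1 on chromosome 17 (96.3% and 96.5%, 23 CpGs). The interval of the arm difference was below 0 in 7 stretches (2.37%) and above 0 in 17 (5.76%). By counting alone, 95% intervals also exclude 0 in some stretches. Shares for stretches of other sequence, or with a pool left out, are not given here. Without pool 3 the difference over all desert CpGs was -0.379 points. The counts of 7 and 17 are therefore not read as particular to deserts or to the arm.

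Besides the stretch of the block, 3 megabase-long deserts were among those with the most desert CpGs. The stretch between Cntnap5b and Cdh20 (chr1:100590600-104668339, 130 CpGs) was at 69.8% and 67.8%, that between D3Ertd751e and Pcdh10 (chr3:41903308-45278397, 126 CpGs) at 77.2% and 78.2%, and that between Tenm3 and Aga (chr8:49622825-53411682, 123 CpGs) at 67.3% and 65.8%. In these 3 the pools of the arms overlapped. Deserts also hold antigen receptor segments, which the annotation does not class as protein-coding. The T-cell receptor alpha and delta region between Gm36448 and Dad1 was at 83.2% and 82.8%, and the heavy-chain region between Adam6a and Zfp386 at 80.6% and 79.0%, both with intervals of the difference that included 0.

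At the scale of 1-kb windows, 630 windows of desert CpGs had 50 or more calls and 10 or more cells in each arm. Of these, 376 were above 80% in both arms and 27 below 20% in both. A window counted as changed at a difference of 10 points or more. With AG-881, 29 desert windows (4.60%) were lower, against 4.84% of all 15059 autosomal windows measured, and 35 (5.56%) were higher, against 1.77%. Desert windows were more often of middle level (184 of 630, against 2526 of all 15059). Of windows with a mean level of 20 to 80%, 19 of 184 desert windows (10.3%) were lower against 20.8% of all such windows, and 14 (7.61%) were higher against 7.32%. The share of middle-level desert windows that were lower was thus below that of all such windows, and the share that were higher was near it. Without pool 3, 14 of 510 measured desert windows of any level were higher and 28 lower. The share over all windows without pool 3 is not given here, so these 2 counts cannot be set against it. Every AG-881 pool was below every DMSO pool in 5 of 386 desert windows with 10 or more calls in each pool (1.30%, against 1.11% of all) and above in 7 (1.81%, against 0.421%).

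**Figure D5:**
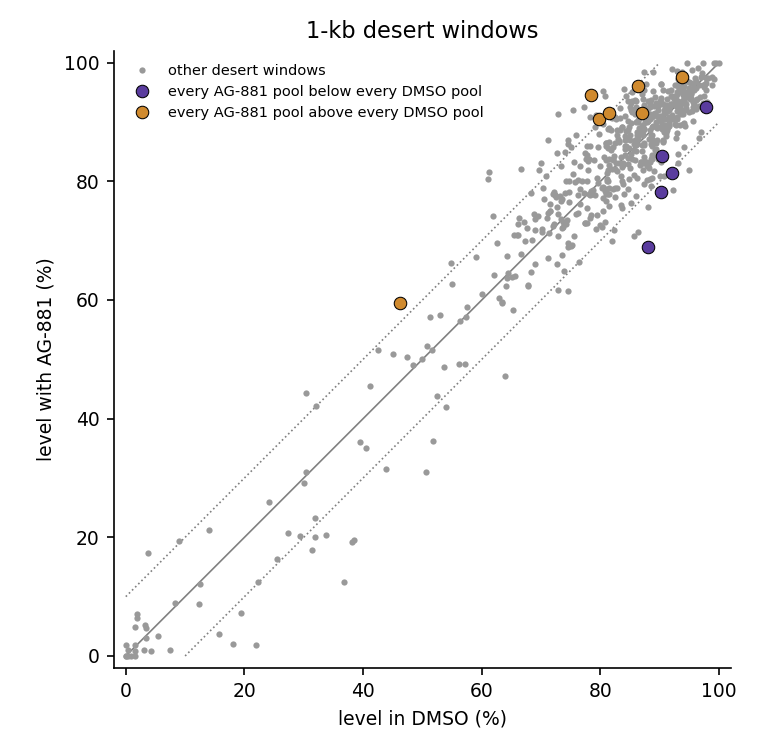
Level (%) of 630 desert windows of 1 kb in DMSO (x) and AG-881 (y); the solid line is equality, dotted lines are 10 points away, and coloured points are the 5 and 7 windows whose pools do not overlap. Most windows lie above 80% in both arms, 29 fall on or below the lower dotted line and 35 on or above the upper one.

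Among CpG-dense windows (a median of 10 or more CpGs within 100 bp) with 200 or more calls and 20 or more cells in each arm, 26 in all, the lowest were close to free of methylation. A window at chr15:68362001-68363000, 103.1 kb from Zfat, was at 0.984% with AG-881 and 0.329% with DMSO over 34 CpGs. One at chr1:23256001-23257000, 109.4 kb from Ogfrl1, had no methylated call in 271 with AG-881 and 0.362% of 276 with DMSO. The third, at chr8:20122001-20123000, 186.7 kb from 9530057J20Rik, was at 1.08% (0.350 to 2.49) with AG-881 and 7.48% (5.35 to 10.1) with DMSO; AG-881 pools were at 0.943%, 1.6%, 0.926% and 0.794% and DMSO pools at 11.6%, 1.47%, 7.59% and 6.54%, so pool 6 lay within the AG-881 range. The next 3 were also lower with AG-881: chr12:20990001-20991000 near Asap2 (12.5% and 22.4%), chr6:127330001-127331000 near Parp11 (16.3% and 25.4%) and chr13:3360001-3361000 near Gdi2, which overlaps the pseudogene Gm16505 (23.2% and 31.96%). Their pools overlapped; near Asap2 they ran from 1.83% to 43.5% with AG-881.

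The 6 highest of these windows were nearly full in both arms, from 88.9% to 94.5% in DMSO cells and from 89.0% to 95.5% in AG-881 cells. One lies 107.7 kb from Tbx18, a T-box factor gene (chr9:87839001-87840000, 95.5% and 94.0%). CpG-dense desert windows thus held both ends of the range.

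At that depth, 87 desert windows of any density, 1 had every AG-881 pool below every DMSO pool and 2 had the opposite. The first, at chr3:22730001-22731000 and 513.4 kb from Tbl1xr1, was at 84.3% (80.1 to 87.9) with AG-881 and 90.5% (87.1 to 93.2) with DMSO. The others, at chr2:83430001-83431000 near Zc3h15 and chr1:137350001-137351000 near Nr5a2, were at 91.5% against 87% and 97.6% against 93.8%. The interval of the difference included 0 near Zc3h15 and excluded it at the other 2 windows. The share of all autosomal windows with such pools at that depth is not given here. The counts of 1 and 2 among 87 are therefore not read as particular to deserts.

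Within single cells, most windows of middle level held mixed calls. Of 2864 pairs of a DMSO cell and a desert window of 20 to 80% with 4 or more calls, 81.1% held both methylated and unmethylated calls, 15.96% were fully methylated and 2.97% had no methylated call; with AG-881 the shares were 81.1%, 15.2% and 3.70%. In gene intervals the shares with DMSO were 72.6%, 9.73% and 17.7%. Desert windows of middle level thus had a smaller share of pairs without any methylated call than those of genes, in both arms. Their share of fully methylated pairs was larger in both arms, and levels within the range of 20 to 80% were not matched.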

How the data were processed

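The deposited table gives, per the labels, the methylated fraction of each CpG position in each cell. The build is mm10 according to the submitters' processing notes. How reads were aligned, called and placed in multi-copy sequence is not given here in the sources used. All of the authors' fractions are 0, 0.5 or 1, with no read counts.

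Adjacent positions were merged into 1 CpG, each cell giving 1 methylated or unmethylated call, and ties (0.647% of calls) were left out. Gene intervals came from the RefSeq annotation of GRCm38 (20665 autosomal protein-coding genes). Levels are shares of calls with 95% Clopper-Pearson intervals, and intervals of differences combine them by squared sums; they cover counting error only, and without molecular identifiers calls may share molecules. A relative level is a cell's level minus the mean of both arms at its CpGs without that cell. A count of 0 is given a limit of 3 calls. Python 3.11.15, numpy 2.4.6, pandas 2.3.3, scipy 1.17.1 and matplotlib 3.10.9 were used, and the code was tested on simulated data.

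Named windows were the 6 lowest and 6 highest CpG-dense ones and those whose pools did not overlap, at 200 or more calls and 20 or more cells in each arm; named stretches were the 5 with the most desert CpGs. Of these, 1 window and 1 stretch are not reported here. Other named items were chosen after their values were seen. The members and lists were chosen with earlier results of these data known. Cells per pool number 14, 18, 19 and 16 in pools 1 to 4 and 21, 14, 19 and 20 in pools 5 to 8.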

Additional observations from a re-analysis of the deposited data

How the results depend on the processing

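Of 181 values under 24 alternative settings, 116 stayed within the spread or factor allowed, 64 moved and 1 was counted as reversed. The reversed value was the desert arm difference, at -0.379 points without pool 3. The arm difference of the densest class, -0.140 points (-1.63 to 1.35), also changed sign in some settings but was not counted as reversed. It ran from -2.95 points without pool 3 to 1.53 points without pool 8. The cause of these shifts was not tested. No paired analysis was possible because no result comes from a test. Leaving out the block on chromosome 17, and leaving out pools for distance and level-sorted values, were chosen after seeing the data.

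The desert level in DMSO cells (73.4%) was 74.9% with 10 or more cells per arm, 71.1% beyond 50 kb, 75.2% beyond 200 kb, 75.1% away from genes of any type, 72.3% with equal weight per CpG, 73.01% with ties counted and 72.9% without the 1% of CpGs called most, and 73.02 to 73.7% with a pool left out. In the CpG-poorest class (68.7%) it was 69.8% with 2 and 67.9% with 10 cells, 68.4% beyond 50 kb, 67.7% for genes of any type, 68.4% unmerged, 72.3% and 64.5% with radii of 50 and 250 bp, and 68.4 to 69.03% without a pool. In the densest class (69.4%) it was 8.27% without the block, 66.7% with 2 and 73.2% with 10 cells, 51.9% beyond 50 kb, 54.5% beyond 200 kb, 68.006% unmerged, 55.7% with equal weight, 68.1% with ties, 65.5% without the top 1%, 71.3% with 250 bp, and 67.7 to 70.03% without a pool.

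The arm difference (0.368 points) was 0.730 with 10 cells, 0.659 beyond 200 kb, 0.752 for genes of any type, and from -0.379 (without pool 3) to 0.742 without a pool. In the poorest class it was 1.07 with 10 cells and 0.00622 to 1.01 without a pool, and in the densest -2.66 beyond 50 kb and -2.95 to 1.53 without a pool. The desert difference minus that of other intergenic sequence (1.67) was 2.01 beyond 200 kb and 2.01 for genes of any type, 0.978 with equal weight, and 1.43 to 2.14 without a pool. Windows higher by 10 points (35 of 630 measured) numbered 22 of 437 with 10 cells and 21 of 417 beyond 200 kb. They numbered 6 of 186 for genes of any type, 8 of 245 at 100 or more calls, and 14 to 34 without a pool. Those lower (29 of 630) numbered 47 of 797 with 2 and 9 of 437 with 10 cells. They numbered 44 of 888 beyond 50 kb, 13 of 417 beyond 200 kb and 4 of 186 for genes of any type. At 100 or more calls 1 of 245 was lower, and without a pool 15 to 29 were. With a pool left out, 440 to 540 windows were measured. Shares over all autosomal windows are not given for these settings. Pools 4, 5 and 7 each moved the lower count by over 1.5 times, to 15 of 483, 18 of 451 and 17 of 478. The SD over cells was 2.76 and 3.01 points without the block. The densest class had no member under genes of any type or a radius of 50 bp.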

Other observations

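The following items were singled out after their values were seen. Near Mir137, a microRNA gene on chromosome 3, 3 desert CpGs within 1 kb were at 53.3% of 30 calls with AG-881 (34.3 to 71.7) and 95.8% of 24 calls with DMSO (78.9 to 99.9). Near Mir8117, 8 CpGs were at 69.9% and 63.04%. Of the 295 stretches, the one between Ccnd2 and Parp11 had the most negative arm difference, at 25.6% in AG-881 cells against 34.95% in DMSO cells. The interval of this difference was -16.7 to -1.92 points over 309 calls in each arm. Of its 31 desert CpGs, 22 are those of the window near Parp11 described above, whose pools overlapped, so both rest largely on the same CpGs. Among the 295 stretches, the one between Lama2 and Ptprk had the most positive arm difference, at 83.5% and 72.3%. The promoter of Gm29998, with 3 desert CpGs, was at 2.5% of 40 calls with AG-881 (0.0633 to 13.2). With DMSO it was at 19.05% of 42 calls (8.60 to 34.1). Its pools overlapped: pool 1 (AG-881) was at 20%, pools 6 and 7 (DMSO) at 0%, and pools 5 and 8 (DMSO) at 55.6% and 25%.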
